A study of Mus musculus with 9 samples.

Results

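Of the 17730 genes in the table, 9 are the complement genes described here, chosen by name: C3, C4b, C2, C1ra, C1rl, C1s1, Cfb, Cfi and Serping1. All 9 have a row. They were measured in cultured astrocytes taken from the brain of wild-type C57BL/6 mice on postnatal day 0. The astrocytes had received microglia-conditioned medium (MCM) from microglia stimulated with lipopolysaccharide (LPS-MCM, 3 libraries) or with hemin, a breakdown product of hemoglobin (Hemin-MCM, 3 libraries). The series also has a group with medium of resting microglia (Resting-MCM), which was not analysed here, so higher and lower always compare LPS-MCM with Hemin-MCM and do not show which of them changed.

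Complement is a cascade of plasma and tissue proteins that tags and lyses targets. In the classical pathway the recognition molecule C1q activates the proteases C1r and C1s, which cleave C4 and C2 to build the enzyme that splits C3. In the alternative pathway factor B, the product of Cfb, takes the place of C2, and both pathways meet at C3. Serping1 encodes the C1 inhibitor, which blocks C1r and C1s, and Cfi encodes factor I, which cuts the active fragments of C3 and C4. In brain, glia make much of the local complement, and C3 is widely used as a marker of reactive astrocytes.

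Levels are given in FPKM, fragments scaled by transcript length and by the mapped fragments of the library, which can be set side by side between genes. Library totals were 348383 to 359093 FPKM, and steps in the low values put the depth at roughly 34900000 to 38300000 fragments per library, an approximate figure. Across genes, libraries of the same group correlated at a Pearson r of 0.9944 to 0.9968 in log2(FPKM + 1), and libraries of different groups at 0.9809 to 0.9854. None of the 9 astrocyte markers listed was at 0 in any library, and by limma 5 of the 9 were lower with LPS-MCM, 3 did not pass and 1 was higher. The most abundant, Gfap, was lower and ranged from 438 to 483 FPKM with LPS-MCM and from 655 to 709 with Hemin-MCM, and Slc1a2, an astrocyte glutamate transporter gene, was the higher one (log2 difference 0.38, limma adjusted p = 0.00046). None of the 11 microglia and macrophage markers was at 0 either. Their summed level, mostly Lyz2, ranged from 1610.3 to 1851 FPKM with LPS-MCM and from 3484 to 3781 with Hemin-MCM. By limma 9 of the 11 were lower with LPS-MCM. Beside both marker counts, 13.8% of all genes tested were lower and 6.72% were higher. The 9 astrocyte markers summed to 1279 to 1321 FPKM with LPS-MCM and 1582 to 1669 with Hemin-MCM. In every library this was below the microglia and macrophage sum. Lyz2 alone was at 1427 to 1637 FPKM with LPS-MCM and at 3145 to 3435 with Hemin-MCM. Sums over different gene lists do not measure the proportions of cell types. In bulk samples fewer cells of a type and less RNA per cell cannot be told apart. The 5 fibroblast and meningeal markers summed to 27.6 to 32.0 FPKM with LPS-MCM and 23.4 to 36.4 with Hemin-MCM. Lum and Dcn were higher with LPS-MCM (log2 differences 1.23 and 0.60). Col1a1 and Col1a2 had differences of -0.59 and -0.61 and did not pass (limma adjusted p = 0.15 and 0.102), although their groups did not overlap. Hemin-MCM library 2 stood apart from the other Hemin-MCM libraries in both genes. Col1a1 was at 8.86 FPKM there against 3.39 and 3.29, and Col1a2 at 10.1 against 4.38 and 4.36. Over the 6 libraries, the 6 oligodendrocyte lineage markers summed to 24.6 to 29.2 FPKM and the 5 neuron markers to 13.7 to 17.9. The 4 endothelial markers summed to at most 0.727 FPKM in any library. The part of these cell types in the complement results was not tested.

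Upstream sequence is shown for 3 of the members: C3, the most abundant of them, and the neighbours C1ra and C1rl on chromosome 6, of which C1ra was higher in LPS-MCM and C1rl did not pass. RefSeq promoter windows (GRCm38.p6) were at hand for 4 members, the fourth being C1s1; C2, C4b, Cfb, Cfi and Serping1 are named only. The sequences run 5′ to 3′ on the gene's strand over the 250 bases before the annotated start: chr17:57228137-57228386 on the minus strand for C3, chr6:124512371-124512620 on the plus strand for C1ra and chr6:124492863-124493112 on the plus strand for C1rl. Capitals mark matches to the C/EBP motif.
C3: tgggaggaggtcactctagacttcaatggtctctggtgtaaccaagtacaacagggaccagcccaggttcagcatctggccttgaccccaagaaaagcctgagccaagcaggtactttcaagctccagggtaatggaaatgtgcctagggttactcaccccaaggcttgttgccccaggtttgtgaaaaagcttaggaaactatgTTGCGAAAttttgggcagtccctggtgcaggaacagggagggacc
C1ra: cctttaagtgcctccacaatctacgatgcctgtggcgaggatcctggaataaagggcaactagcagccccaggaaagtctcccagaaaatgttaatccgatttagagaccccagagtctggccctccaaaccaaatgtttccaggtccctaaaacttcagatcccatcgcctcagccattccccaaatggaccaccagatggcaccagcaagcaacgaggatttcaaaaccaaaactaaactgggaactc
C1rl: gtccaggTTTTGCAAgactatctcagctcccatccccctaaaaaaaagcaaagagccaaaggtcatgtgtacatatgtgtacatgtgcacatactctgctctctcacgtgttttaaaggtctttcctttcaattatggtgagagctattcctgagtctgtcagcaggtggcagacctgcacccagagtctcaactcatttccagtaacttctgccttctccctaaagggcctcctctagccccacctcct

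Motifs of 4 inflammatory transcription factor families were searched on both strands: the NF-kB motif kB, the STAT motif GAS (TTCNNNGAA), the interferon response core (GAAANNGAAA) and the C/EBP motif (TTGCNNAA). The C/EBP motif was found in C3 at bases -45 to -38 from the start, in C1rl at -243 to -236 and, in a window counted from the start at base 124542359 of chromosome 6, in C1s1 at -242 to -235. The window of the other C1s1 start, at base 124542321, and the window of C1ra held no match to any of the 4. Both C1s1 starts lie inside the gene's annotated span, so 33 and 71 bases of these windows are within the gene. No kB, GAS or interferon response match was found in the 5 windows searched. Among all 32851 promoter windows of the same length, 9.56% held the C/EBP motif, 7.25% the kB motif, 7.02% GAS and 2.98% the interferon response core. These are matches of letters and do not show binding.

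**Figure D1:**
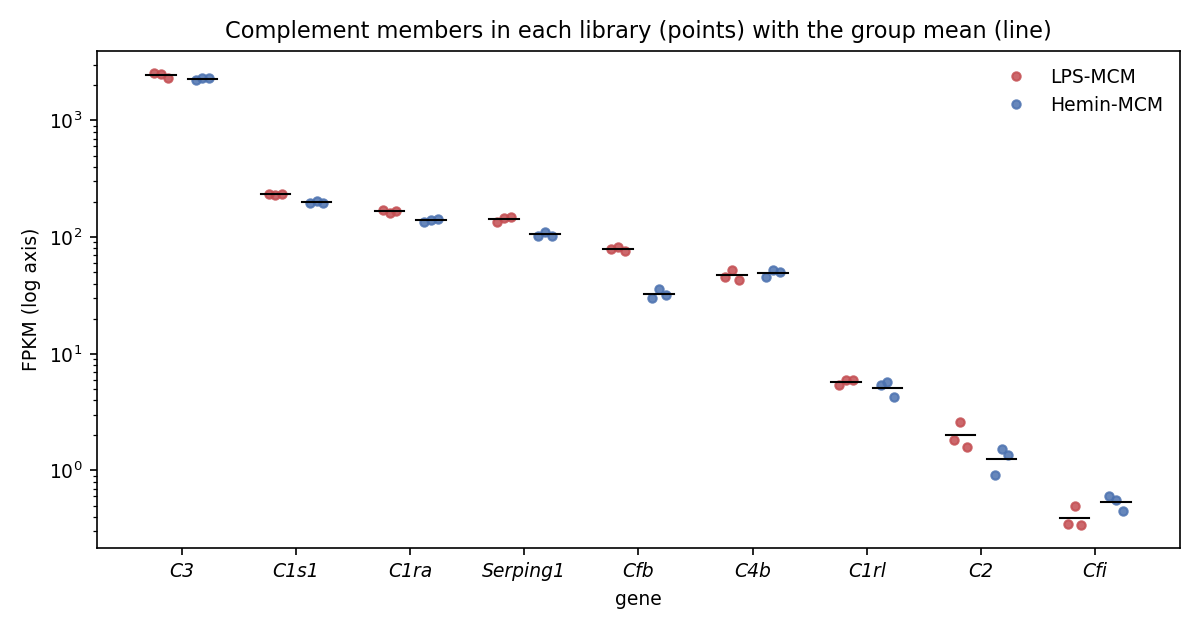
FPKM of the 9 complement genes on a log axis, with a point for each of 3 LPS-MCM (red) and 3 Hemin-MCM (blue) libraries and a line at the group mean. Cfb stands apart between the groups, at 76.6 to 82.4 against 30.2 to 35.8 FPKM, while the points of C3 and C4b overlap.

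Cfb had the largest difference of the 9 genes, 4 of the 8 members tested were higher in LPS-MCM, and none was lower. Tests were made with limma on log2(FPKM + 1), with p-values adjusted by Benjamini-Hochberg over the 11688 genes whose mean reached 1 FPKM, and 0.05 as the threshold. Of all genes tested, 6.72% were higher and 13.8% were lower. At an unadjusted limma p under 0.05, 5 members were higher and 0 lower, against 10.4% and 22.3% of all genes tested. In 5 of the 8 members the LPS-MCM and Hemin-MCM libraries were fully separated, as they were in 37.5% of all genes tested. The median difference over the 8 was 0.24 on the log2 scale, and -0.04 over all genes tested. Factor I, at a mean under 1 FPKM, was the member left untested.

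The shared component C3 (chromosome 17, 57203967 to 57228136, minus strand) carries the thioester that binds covalently to targets. Its RNA was at 2535, 2507 and 2305 FPKM in LPS-MCM and at 2209.8, 2290.5 and 2329 in Hemin-MCM. The groups overlap, since the lowest LPS-MCM library lies below the highest Hemin-MCM library. The means were 2449 ± 126 and 2276 ± 60.7 FPKM (SD, n = 3 each), a log2 difference of 0.10 ± 0.07 (SE, limma adjusted p = 0.33) with a 95% confidence interval of -0.05 to 0.26. C3 was the sixth most abundant of all genes in each LPS-MCM library and at rank 6 or 7 in Hemin-MCM, and took 0.689% and 0.648% of the total FPKM. Without the third LPS-MCM library the limma adjusted p was 0.0641, still above the threshold.

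In the alternative pathway, Cfb (chromosome 17, 34856374 to 34862514, minus strand) encodes the protease of the enzyme that amplifies C3 cleavage. It was at 79.5, 82.4 and 76.6 FPKM in LPS-MCM and at 30.2, 35.8 and 32.1 in Hemin-MCM. Every LPS-MCM library was above every Hemin-MCM library. The means of 79.5 ± 2.92 and 32.7 ± 2.82 FPKM (SD, n = 3 each) differ 2.43-fold, and the log2 difference was 1.26 ± 0.06 (SE, limma adjusted p = 1.16e-06). By size of difference Cfb ranked 40th among the 786 genes called higher. Of the other alternative pathway genes, Cfp, which encodes the stabilizer properdin, was at 92.4 ± 7.08 and 101 ± 5.71 FPKM and did not pass (limma adjusted p = 0.199), and Cfd, which encodes the protease factor D that cleaves factor B, was between 0 and 0.114 FPKM in every library.

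The classical pathway proteases C1ra (chromosome 6, 124512621 to 124523440, plus strand) and C1s1 (chromosome 6, 124530344 to 124542392, minus strand) differed by similar amounts. C1ra was at 170.5, 161 and 167 FPKM in LPS-MCM and at 135, 139.8 and 143 in Hemin-MCM. C1s1 was at 236, 228 and 233 FPKM in LPS-MCM and at 196, 205 and 196 in Hemin-MCM. Neither gene's groups overlap. On the log2 scale the difference was 0.25 ± 0.05 for C1ra (SE, limma adjusted p = 0.00416) and 0.22 ± 0.05 for C1s1 (limma adjusted p = 0.0076), which are 1.19-fold and 1.17-fold in mean FPKM. The adjacent gene C1rl (chromosome 6, 124493113 to 124510643, plus strand), which ends 1977 bases before C1ra and encodes a protein related to C1r, was far less abundant. It was at 5.39, 5.97 and 5.92 FPKM in LPS-MCM and at 5.40, 5.70 and 4.26 in Hemin-MCM, with overlapping groups and a log2 difference of 0.15 ± 0.09 (limma adjusted p = 0.307, 95% confidence interval -0.06 to 0.36).

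C4b and C2 encode the components that C1s cleaves. C4b (chromosome 17, 34728139 to 34743902, minus strand), a relative of C3, was at 45.6, 52.7 and 42.6 FPKM in LPS-MCM and at 45.6, 52.7 and 49.9 in Hemin-MCM. The groups overlap, and the log2 difference was -0.08 ± 0.08 (SE, limma adjusted p = 0.577, 95% confidence interval -0.26 to 0.11). C2 (chromosome 17, 34862602 to 34882100, minus strand) was at 1.82, 2.62 and 1.59 FPKM in LPS-MCM and at 0.907, 1.51 and 1.35 in Hemin-MCM. These groups are separated by a narrow gap, and the difference of 0.41 ± 0.14 did not pass (limma adjusted p = 0.0649). Leaving out the second LPS-MCM library lowered it to 0.27 (limma adjusted p = 0.181), and leaving out Hemin-MCM library 1 lowered it to 0.295 (0.201). It passed without the third LPS-MCM library (0.0375), under quantile normalization (0.0275) and with the replicate number as a block (0.0225). At these levels the pseudocount sets its size, which was 0.64 with 0.1 and 0.16 with 5 in place of 1, and the mean FPKM differ 1.60-fold.

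Among the regulators, Serping1 (chromosome 2, 84765360 to 84775444, minus strand) was higher in LPS-MCM. Its values were 134, 145 and 148 FPKM against 103, 111 and 102, with no overlap. The means of 143 ± 7.65 and 105 ± 5.01 FPKM (SD, n = 3 each) differ 1.35-fold, and the log2 difference was 0.43 ± 0.06 (SE, limma adjusted p = 0.000479). Cfi (chromosome 3, 129836727 to 129875332, plus strand) was the least abundant member. It was at 0.349, 0.496 and 0.339 FPKM in LPS-MCM and at 0.608, 0.552 and 0.452 in Hemin-MCM, about 26 to 44 fragments per library on a transcript of 2079 bases by the depth estimate. The groups overlap, and in a fit without the filter on low values the log2 difference was -0.14 ± 0.06 (limma adjusted p = 0.192, unadjusted 0.0511).

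**Figure D2:**
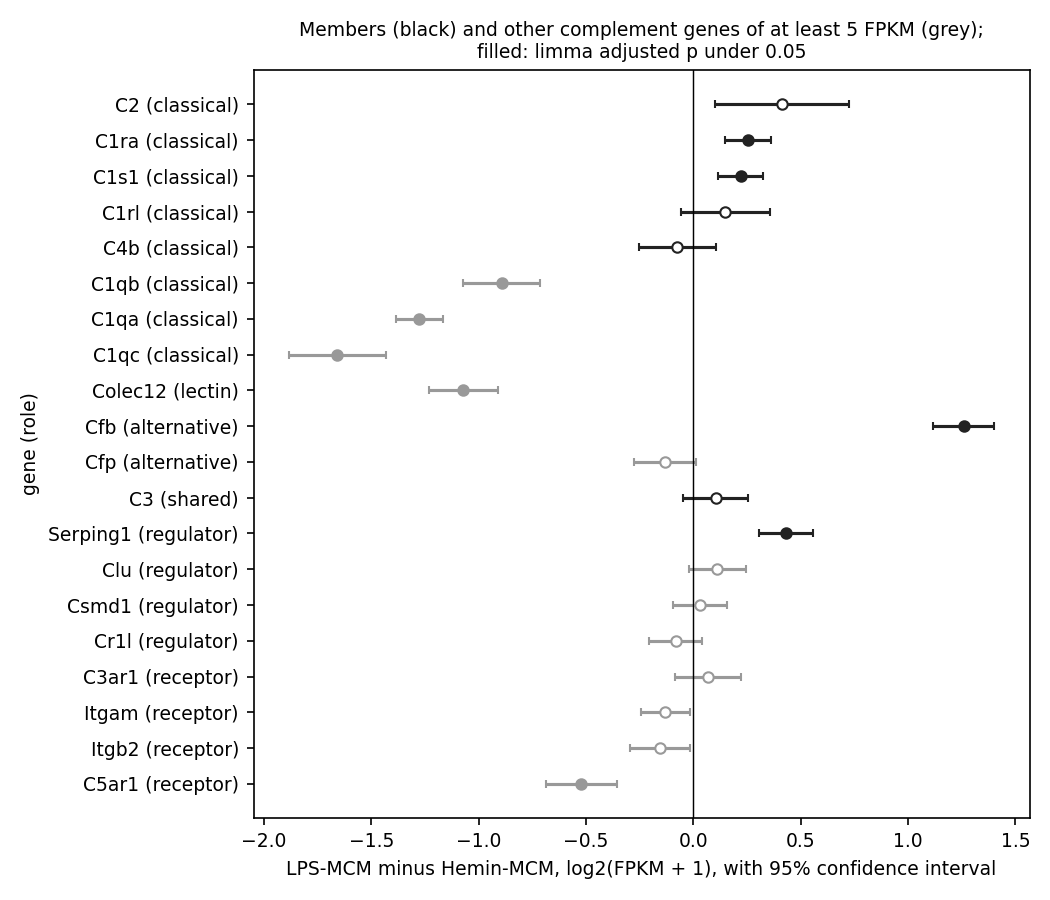
Difference of LPS-MCM minus Hemin-MCM in log2(FPKM + 1), with its 95% confidence interval from limma, for the tested members (black) and other complement genes of at least 5 FPKM in either group (grey), ordered by role. Filled points pass the threshold: Cfb (1.26), Serping1 (0.43), C1ra (0.25) and C1s1 (0.22) lie to the right, and the C1q genes, Colec12 and C5ar1 to the left.

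Within both groups the order of the levels was nearly the same. C3 came first at 10.5 times the next gene in LPS-MCM and 11.4 times in Hemin-MCM, followed by C1s1, C1ra and Serping1. Cfb and C4b exchanged the fifth and the sixth place, with Cfb above C4b in LPS-MCM (79.5 and 47.0 FPKM) and below it in Hemin-MCM (32.7 and 49.4 FPKM). C1rl, C2 and Cfi followed in both. The 3 libraries of each gene did not overlap those of the next gene in the order, in either group. Summed within each library, the 5 classical members ranged from 450.1 to 459 FPKM with LPS-MCM and from 383 to 405 with Hemin-MCM. Most of this sum was C1s1 and C1ra, while C4b, C1rl and C2 did not pass. The sum leaves out the C1q chains, which were lower with LPS-MCM.

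Ratios within a library do not depend on how libraries were scaled to each other, so 6 pairs of members were compared in this way. The ratio of Cfb to C3 was 1 to 30.8 with LPS-MCM and 1 to 69.7 with Hemin-MCM (geometric means of FPKM ratios, n = 3 each), a log2 difference of 1.18 with no overlap. Serping1 relative to C1s1, whose protease the C1 inhibitor blocks, was at 0.613 and 0.529, a log2 difference of 0.21, also with no overlap. The exact permutation p of both was 0.1, the smallest that 3 against 3 libraries allow, and 0.24 after Benjamini-Hochberg adjustment over the 6 pairs, so neither could pass. C1ra relative to C1s1 was almost the same in both groups, at 0.716 and 0.699 with a log2 difference of 0.03 (exact permutation p = 0.4). C2 relative to Cfb had a log2 difference of -0.60, C4b relative to C3 of -0.18 and Cfi relative to C3 of -0.56, each with overlapping groups (exact permutation p = 0.2).

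**Figure D3:**
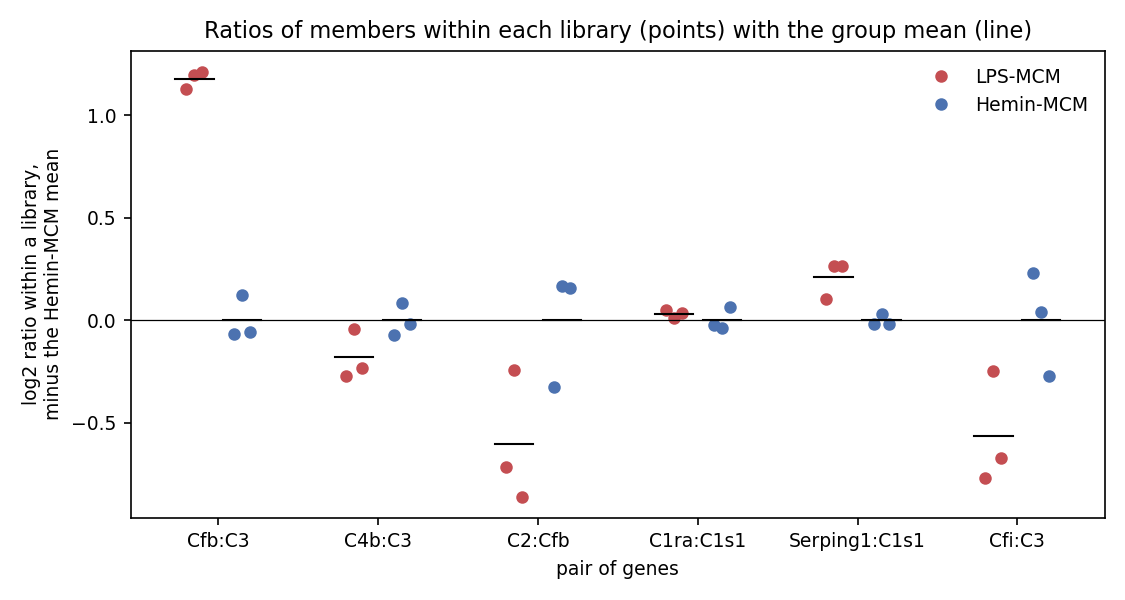
Log2 ratio of 2 members within each library, minus the mean of the Hemin-MCM libraries, for 6 pairs, with a point per library and a line at the group mean. Cfb:C3 (1.18) and Serping1:C1s1 (0.21) are separated between groups, and C1ra:C1s1 (0.03) is not.

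Members are grouped in the genome. Cfb and C2 are neighbours on the minus strand with 87 bases between them, and C4b lies 112471 bases from Cfb in the same region. On the log2(FPKM + 1) scale Cfb differed by 1.26, C2 by 0.41 and C4b by -0.08, and the groups overlapped in the ratio of C2 to Cfb. C1ra and C1s1, 6903 bases apart, differed by 0.25 and 0.22. The annotated transcript Gm20547 spans both Cfb and C2 (GENCODE vM21). It shares 81.4% of the 50-base words of the longest Cfb transcript and 58.0% of those of C2. The counting could thus divide the reads of Cfb and C2. Gm20547 has no row of that name in the table, so no level of it can be given. C1ra shares 48.0% of its 50-base words with C1rb, C1s1 24.3% with C1s2 and C4b 35.2% with C4a, so their single values are uncertain too. C1rb was at 0.376 to 1.01 FPKM and C1s2 at 0.246 to 0.621 in the 6 libraries, and C4a has no row in the table. C3, C1rl, Serping1 and Cfi share no such word with another gene. C1s1, C1rl and C2 are overlapped by genes on the opposite strand (Gm16567, Gm44096 and Zbtb12), and whether counting used strand is not given in the sources used here.

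Other complement genes moved the other way or did not pass. Of 47 listed genes, 42 had a row and 15 were tested, and 7 of these were lower with LPS-MCM and 0 higher by limma (0 higher and 9 lower at an unadjusted p under 0.05, against the 10.4% and 22.3% of all genes). The median difference was -0.20. The C1q chains, which bind C1r and C1s in one complex, were all lower: C1qa was at 45.2 ± 1.96 and 110.8 ± 1.86 FPKM, C1qb at 62.7 ± 7.84 and 117 ± 5.55, and C1qc at 25.4 ± 3.92 and 81.9 ± 6.80 (SD, n = 3 each), with log2 differences of -1.28, -0.89 and -1.66. Their partner proteases C1ra and C1s1 were higher in the same libraries. C1q is made mainly by microglia in brain. With the sums given above, 9 of the 11 microglia and macrophage markers were also lower, against 13.8% of all genes tested. The log2 differences of these 9 ran from -0.72 (Aif1) to -2.76 (Fcrls). Itgam and Ptprc, at -0.13 and -0.09, did not pass (limma adjusted p = 0.102 and 0.347). The part of microglia and macrophages in the C1q difference was not tested.

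Colec12, a collectin of the scavenger receptor type, was at 4.80 ± 0.241 and 11.2 ± 0.928 FPKM (log2 difference -1.07, limma adjusted p = 6.96e-06), and C5ar1, the receptor of the fragment C5a, at 17.1 ± 1.58 and 25.0 ± 1.70 (-0.52, limma adjusted p = 0.000777). The other 2 lower genes were under 5 FPKM in both groups, among them Hc, which encodes C5 and was at 0.968 and 1.49 FPKM on average (limma adjusted p = 0.0129). C3ar1, the receptor of the C3 fragment C3a, was at 25.0 ± 1.94 and 23.8 ± 1.63 FPKM and did not pass (limma adjusted p = 0.556). Clu, which encodes clusterin, an inhibitor of the membrane attack complex, was abundant at 1275 ± 32.6 and 1180.3 ± 42.2 FPKM and did not pass (limma adjusted p = 0.222), and it was higher under quantile normalization (0.0147). Cr1l, which encodes the membrane regulator Crry, was at 18.9 ± 0.870 and 20.0 ± 0.738 FPKM (limma adjusted p = 0.349). The genes C6, C7, C8a, C8b, C8g and C9 of the membrane attack complex summed to 0.426 to 1.23 FPKM in every library, far below the members of the early steps other than C2, C1rl and Cfi.

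**Figure D4:**
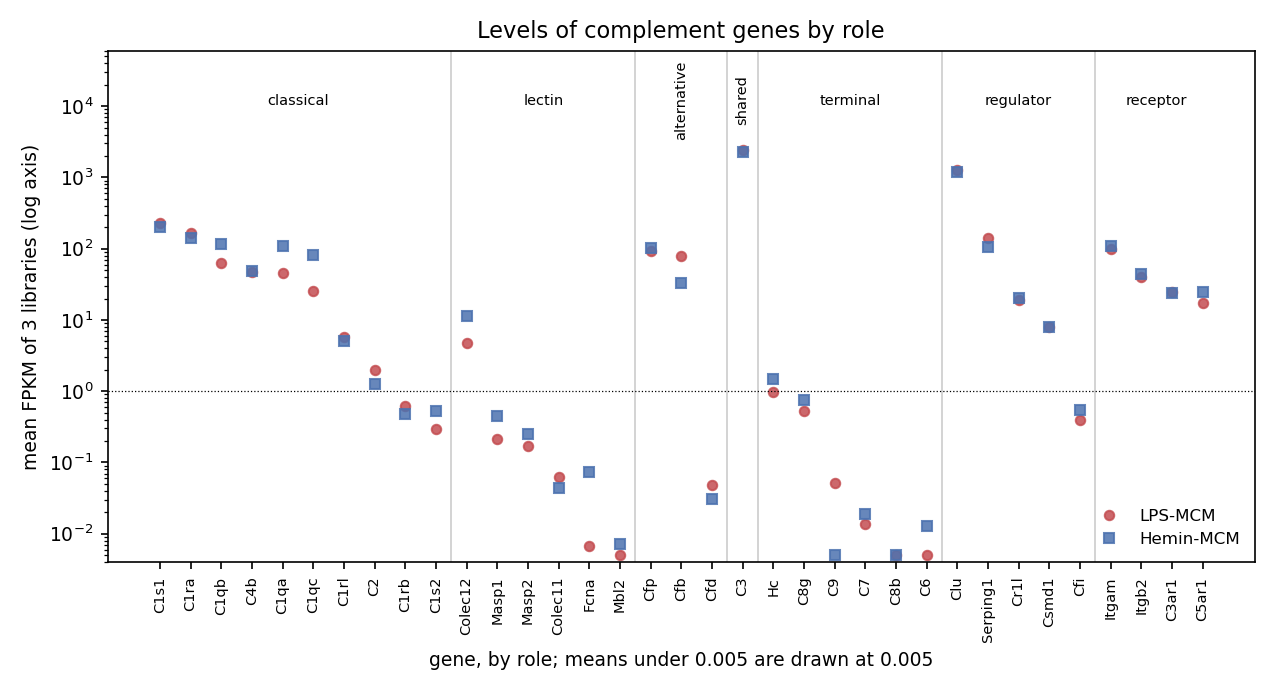
Mean FPKM of 3 libraries per group on a log axis for complement genes by role: all listed genes of the classical, lectin, alternative and terminal steps with a value above 0, the members, and regulators and receptors of at least 5 FPKM. The dotted line marks 1 FPKM, the limit for testing. Means under 0.005 are drawn at 0.005. C3 (2449 and 2276 FPKM) and Clu (1275 and 1180.3 FPKM) are highest, and most lectin and terminal genes lie under the line.

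Of 10 listed transcription factor genes known to act in inflammation, 4 were higher in LPS-MCM and 1 was lower. Over all genes tested, 6.72% were higher and 13.8% were lower. The NF-kB subunit genes Nfkb1 (log2 difference 0.24 ± 0.05, SE) and Rela (0.20 ± 0.05), Stat2 (0.28 ± 0.05) and Cebpb (0.41 ± 0.07), which encodes a C/EBP factor, were higher, with limma adjusted p between 0.0016 and 0.0167. Rela did not pass without the third Hemin-MCM library (0.0906). Irf8, a factor of myeloid cells, was lower (-0.75 ± 0.08, limma adjusted p = 9.04e-05). Stat3 and Irf9 did not pass (limma adjusted p = 0.0568 and 0.0573); both passed under median-of-ratios scaling, and Stat3 also under quantile normalization (0.0354) and without the third LPS-MCM library (0.0141).

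The genes most like Cfb over the 6 libraries, by Pearson r of log2(FPKM + 1) among 8231 genes of at least 5 FPKM, were Saa3 (0.9993), Cybb, Slco3a1, Il1b and Ptges (0.9989), with differences of 0.70 to 2.84 on the log2 scale. Saa3 encodes an acute-phase serum amyloid A, Cybb a subunit of the phagocyte NADPH oxidase and Ptges a prostaglandin E synthase. For C3 they were Mvp (0.9906), Mxra8, Abca3, Ubr4 and Oaf (0.981), with differences of 0.11 to 0.20. The 6 points share the 2 groups and the scaling of each library, so for Cfb a high r mostly restates the difference between the groups, and no test was made.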

How the data were processed

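RNA of 6 libraries was used, 3 with LPS-MCM and 3 with Hemin-MCM. The authors deposited 1 table of FPKM values, named so in its file name, from polyadenylated RNA sequenced with a stranded kit, per the labels' protocols. The submitters' processing notes name mm10 and DESeq; for the aligner, counter and gene models the sources used here give no name. Columns were matched by treatment word and number, and 3 further columns of values matched no sample title and were not used. FPKM are not counts, so log2(FPKM + 1) was tested with limma 3.58.1 in R 4.3.3 (mean-variance trend, 1 mean per group, 4 residual degrees of freedom), two-sided and tested on simulated data. Ratios were tested with exact two-sided permutation tests (scipy 1.17.1). Differences on this scale understate the change of genes with low values. Nothing in the labels ties a library to its own culture or animal, and the p-values thus cover only the variation among these libraries, possibly technical. Depth was estimated from the steps of low values with GENCODE vM21 transcript lengths: 54.7 to 58.7% of the values lay within 0.1 step of a whole number. Positions and promoters are from RefSeq on GRCm38.p6, the mm10 assembly, and overlapping genes from GENCODE vM21. The members and lists were chosen with earlier results of these data known. By the naming rule, all members were named, other complement genes that passed and averaged 5 FPKM or more in a group, transcription factors that passed, and the 5 genes most like Cfb and C3. Cfp, Cfd, Clu, Cr1l, C3ar1, Hc, C1rb, C1s2, the genes C6 to C9, Stat3 and Irf9 fall outside it and were chosen after their values were seen. The same holds for Slc1a2, Lum, Dcn, Col1a1, Col1a2, Itgam, Ptprc, Aif1 and Fcrls. Values of 1 of the 10 listed transcription factors are not reported here.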

Additional observations from a re-analysis of the deposited data

How the results depend on the processing

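Alternatives were other pseudocounts, filters and scalings, no variance trend, a replicate block and leaving out each library. Cfb, Serping1, C1ra and C1s1 were called under each of these 14, with limma adjusted p up to 0.000237, 0.00441, 0.0232 and 0.0467, and C3, C4b and C1rl under none of them. The count of members called higher was 4, and 5, with C2 added, under quantile normalization, with the replicate block and without the third LPS-MCM library. C2 had no value with a filter of 5 FPKM. No member was called lower. Of the other complement genes, 5 to 10 were lower, and 1, Clu, was higher under quantile normalization. Median-of-ratios scaling moved the count of higher transcription factors from 4 to 7; the cause was not tested. Over all genes, the share higher among those called was 32.8%, and 46% with median-of-ratios scaling. Libraries with the same replicate number share only a number: their deviations correlated at 0.0796, 0.107 and -0.106, and not every library correlated best with its own number. No ratio changed direction. Of the members, Cfi and C2 had the fewest fragments behind them, about 26 to 44 and 84 to 247 per library by the depth estimate, and what this does to their tests was not tested.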
